A study of Mus musculus with 3 samples.

Results

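The 7 genes described here encode the receptor chains for GM-CSF and IL-4, the cytokines in which these dendritic cells were grown, and the chains that share subunits with them. They were chosen by name: Csf2ra, Csf2rb, Csf2rb2, Il4ra, Il2rg, Il13ra1 and Il13ra2. Of the 7, 6 had a probe set that names that gene alone in the platform annotation, out of 19938 genes measured in this way. Each of the 6 had 1 such probe set and none shared with another gene, and Il2rg was named by no probe set, so it has no value here.

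The material was 3 samples of bone marrow-derived dendritic cells (BMDC) that form a single group, with 1 Affymetrix whole-transcript array each. BMDC are made in a dish from marrow, here from mice of the inbred strain C57BL/6J, plated at 2000000 cells per well. Every sample was grown for 9 days with murine GM-CSF and murine IL-4, each at 20 ng/ml, so no sample without either cytokine serves as a control. Separate mice or cultures are not recorded in the labels, and the spread between samples may be technical.

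GM-CSF is bound by a specific alpha chain, the product of Csf2ra, which then recruits the common beta chain encoded by Csf2rb, a chain also used by the receptors for IL-3 and IL-5. IL-4 is bound by the IL-4 receptor alpha chain, the product of Il4ra. That chain pairs with the common gamma chain (Il2rg) in the type I receptor, mostly on blood cells, or with the product of Il13ra1 in the type II receptor, which also responds to IL-13. The GM-CSF receptor signals mainly through the kinase JAK2 and STAT5, and the IL-4 receptors through JAK1, JAK3 or TYK2 and STAT6. In mouse marrow cultures GM-CSF supports the growth of myeloid cells, and IL-4 is added to favour a dendritic phenotype.

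Sequence upstream of the gene start was taken from RefSeq (GRCm38.p6) for the members, of which 6 were matched by symbol and Csf2rb was not. The 250 bases before the start were searched on both strands for letters bound by factors that act in this pathway or at promoters in general. These were the STAT motif TTCNNNGAA, the same motif with a spacer of 4 bases, which STAT6 prefers, the core GAGGAA bound by the myeloid factor PU.1, the GC box GGGCGG and the TATA box TATAAA. Shown are the windows of Csf2ra and Csf2rb2, which hold PU.1 or STAT letters next to the start, and those of Il13ra1 and Il13ra2, of which the first gene was detected and the other was not. Capitals mark the matches, and a match on the opposite strand appears as its reverse complement.

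Csf2ra, chr19:61228419-61228668, minus strand: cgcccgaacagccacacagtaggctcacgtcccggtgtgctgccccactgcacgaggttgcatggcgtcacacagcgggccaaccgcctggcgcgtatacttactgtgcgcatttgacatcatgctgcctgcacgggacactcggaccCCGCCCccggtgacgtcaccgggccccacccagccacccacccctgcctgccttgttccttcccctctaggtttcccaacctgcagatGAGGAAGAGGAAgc
Csf2rb2, chr15:78305722-78305971, minus strand: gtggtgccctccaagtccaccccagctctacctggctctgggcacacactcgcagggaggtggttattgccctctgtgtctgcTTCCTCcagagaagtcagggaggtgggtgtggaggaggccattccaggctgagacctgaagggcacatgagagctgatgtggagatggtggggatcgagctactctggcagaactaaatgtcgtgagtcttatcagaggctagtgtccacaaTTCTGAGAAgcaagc
Il13ra1, chrX:36111858-36112107, plus strand: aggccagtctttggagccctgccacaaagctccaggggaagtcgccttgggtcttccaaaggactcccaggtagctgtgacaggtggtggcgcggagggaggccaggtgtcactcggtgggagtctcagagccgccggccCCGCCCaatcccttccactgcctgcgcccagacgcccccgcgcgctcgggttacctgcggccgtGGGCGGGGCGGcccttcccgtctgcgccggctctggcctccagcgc
Il13ra2, chrX:147429193-147429442, minus strand: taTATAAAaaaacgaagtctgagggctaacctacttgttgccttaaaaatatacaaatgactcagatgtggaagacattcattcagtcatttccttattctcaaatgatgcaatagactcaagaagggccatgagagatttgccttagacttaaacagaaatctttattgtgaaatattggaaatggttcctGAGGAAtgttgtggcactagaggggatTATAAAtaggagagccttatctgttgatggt

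In the Csf2ra window a pair of adjacent GAGGAA cores ends 3 bases before the start, and a GC box lies on the opposite strand. The Csf2rb2 window holds TTCNNNGAA, ending 7 bases before the start, and GAGGAA on the opposite strand. The Il13ra1 window has 3 GC boxes, the last of which overlap by 1 base, and a GC content of 70.8%, higher than in 91.7% of all windows. The Il13ra2 window has a GC content of 36.0%, higher than in only 5.81% of all windows, with TATAAA starting 248 and 31 bases before the start. This window, of the gene not detected, also holds GAGGAA, ending 53 bases before the start. That core was in 3 of the 6 member windows. Of the windows not shown, that of Il4ra had a GC box and that of Il2rg had none of the motifs. GC content was 64.8% for Csf2ra, 56.4% for Csf2rb2, 59.6% for Il4ra and 49.2% for Il2rg, with a median of 52.4% over all windows. Over all 32851 windows in the table, TTCNNNGAA occurred in 7.02%, its form with the longer spacer in 5.85%, GAGGAA in 23.3%, GGGCGG in 32.7% and TATAAA in 12.4%. These matches describe letters, and no binding was measured.

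Values are log2 expression as the authors deposited them, and errors are the SD over the 3 arrays. A gene was called above background where it exceeded, in each array, the 95th percentile of that array's 1210 probe sets for olfactory and vomeronasal receptors, genes expressed mainly in the nose. These limits were 5.54, 5.54 and 5.55 in replicates 1, 2 and 3. Of the 6 measured receptor chains, 5 were above background and 1 was not, where 60.5% of all 19938 genes were. The same 5 exceeded a limit at the 99th percentile of these probe sets, as did 46.2% of all genes. They also exceeded the 95th percentile of 42 genes of other tissues, as did 45.4% of all genes. Probe sets bind their targets with different strength, so the call is a rough statement of detection and the values of different genes are not ranked here.

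**Figure D1:**
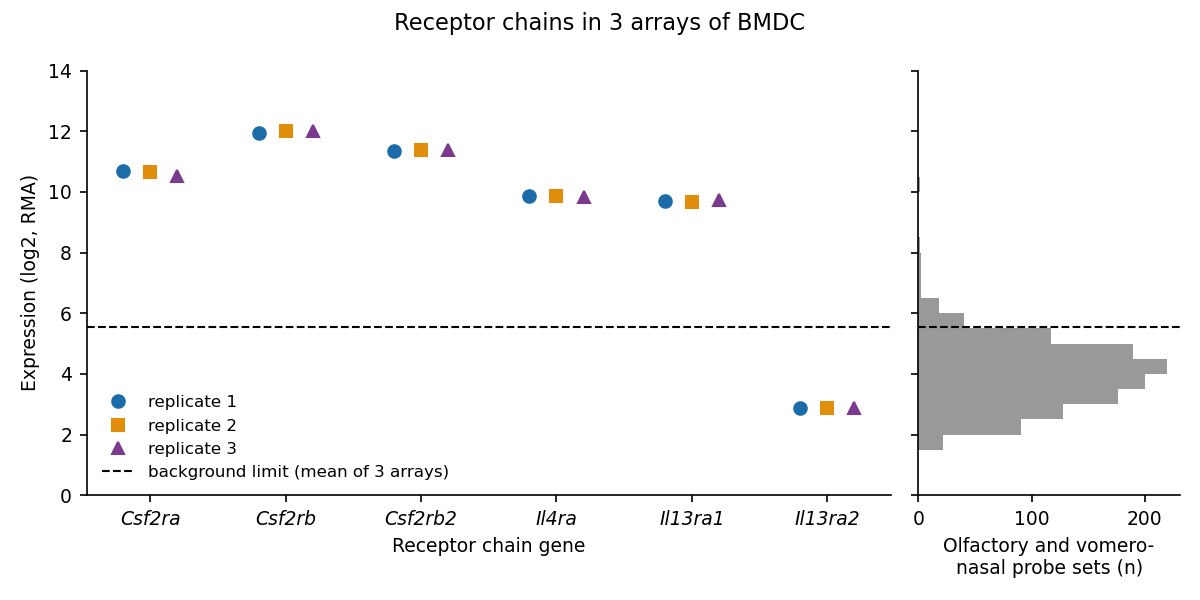
Left, log2 expression of the 6 measured receptor chains in each of the 3 arrays (one symbol per array), with the mean background limit as a dashed line. Right, the number of olfactory and vomeronasal receptor probe sets at each level, on the same axis. Of the receptor chains, 5 lie above the limit in all 3 arrays, and Il13ra2 lies at 2.87 in each, within the receptor probe sets.

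The chains of the GM-CSF receptor were detected in all 3 arrays. Csf2ra, the GM-CSF binding chain, had 10.70, 10.66 and 10.52 in replicates 1, 2 and 3, or 10.62 ± 0.10 (SD, n = 3). Replicates 1 and 2 lay close together and replicate 3 was the lowest, by 0.18 log2 units or 1.13-fold from replicate 1. In every array the value exceeded the limit by at least 4.97 log2 units, and none of the 1210 receptor probe sets had a higher mean.

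Csf2rb, the beta chain that carries the signal, had 11.937, 12.002 and 12.002 in replicates 1, 2 and 3 (11.98 ± 0.04, SD, n = 3). The values of replicates 2 and 3 were identical to the last digit, and replicate 1 was lower by 0.065 log2 units. Csf2rb2 encodes a second beta chain, found in mice, that serves the IL-3 receptor and not GM-CSF. It had 11.36, 11.39 and 11.37 (11.37 ± 0.02, SD, n = 3), a range of 0.036 log2 units. The margins over the limit were at least 6.40 for Csf2rb and 5.82 for Csf2rb2.

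Csf2rb and Csf2rb2 are near-identical copies, and RefSeq places them side by side on chromosome 15 with 0 genes between them. Their probe sets are separate in the annotation, but whether the probes of one also bind the transcript of the other was not tested. The detection of Csf2rb2 as a transcript distinct from Csf2rb is therefore uncertain, and likewise the reverse.

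The IL-4 binding chain and its type II partner were detected in all 3 arrays. Il4ra had 9.87, 9.86 and 9.85 in replicates 1, 2 and 3 (9.86 ± 0.01, SD, n = 3), a range of 0.021 log2 units, and exceeded the limit by at least 4.30. Il13ra1, the partner chain of the type II receptor, had 9.69, 9.66 and 9.72 (9.69 ± 0.03, SD, n = 3), and exceeded the limit by at least 4.12. Replicate 3 was the lowest array for Il4ra and the highest for Il13ra1. Among the receptor probe sets, 1209 of 1210 had a lower mean than either gene. Transcripts of both chains of the type II receptor were thus measured in all arrays, while the type I receptor was covered only through Il4ra, since Il2rg was not measured.

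Il13ra2 was not above background. It encodes a chain with a short cytoplasmic tail that binds IL-13 with high affinity and is best known as a decoy. Its value was 2.87 in each array, identical to the last digit, and lay 2.66 to 2.68 log2 units below the limits. Of the 1210 olfactory and vomeronasal probe sets, 193 (16.0%) had a lower mean. With 1 probe set and no sample known to express the gene, a probe set that binds poorly and an absent transcript cannot be told apart.

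The detected receptor chains spanned at most 0.18 log2 units over the arrays, but each had a larger range than the median gene above background. Among the 12068 genes above background the median range over the arrays was 0.0096 log2 units, since 46.5% of them had 3 identical values, and it was 0.087 over the genes whose values were not all identical. The 5 detected chains had a median range of 0.058, and none of them was identical in all arrays. Il4ra had a larger range than 54.6% of all genes above background, Csf2rb2 than 59.8%, Il13ra1 than 66.1% and Csf2rb than 67.9%. Csf2ra stood at 86.5%. With so many identical values in the table, a small SD is no measure of precision.

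**Figure D2:**
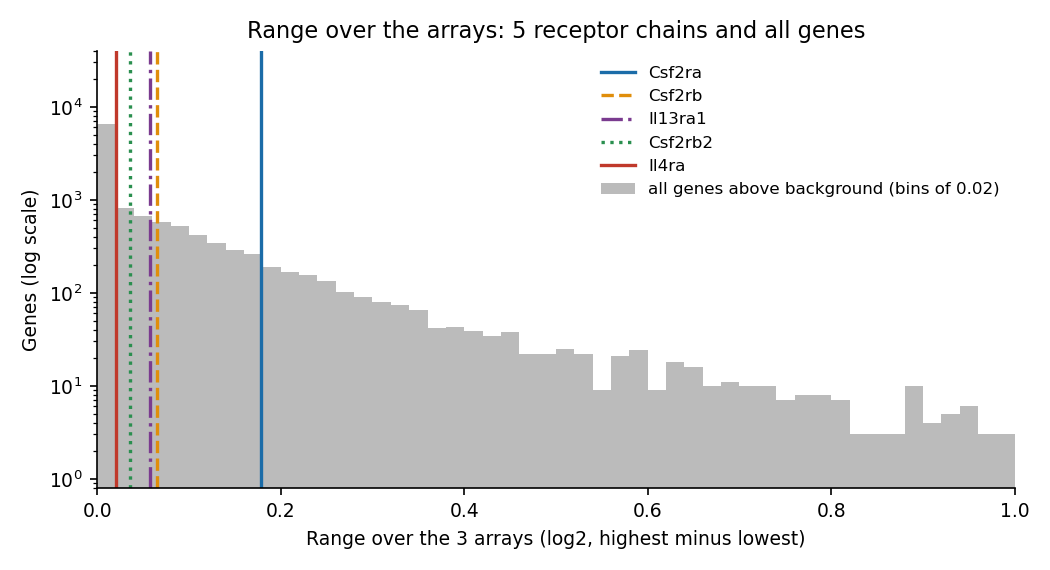
Number of genes above background (log axis) by the range of their log2 values over the 3 arrays, in bins of 0.02, with 5 receptor chains as vertical lines; 60 genes with a range over 1 are not drawn. Csf2ra, at 0.18, is the farthest right of the chains, and the other 4 lie at or below 0.065.

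Csf2ra was highest in replicate 1 and lowest in replicate 3, an order seen in 10.2% of the genes above background. That base includes the 46.5% of genes with 3 identical values, which can show no order. Without replicate 3 its range was 0.032. Several lists of marker genes of other cells and of division were also lower in replicate 3. Over all genes above background, 20.2% were lowest in that array, a share whose base also includes the 46.5% with identical values. The T cell, NK cell and cell cycle lists that follow held no such gene among those above background. The 12 measured T cell markers, all above background, had a mean level of 7.44, 7.19 and 6.82 in replicates 1, 2 and 3, and 10 of the 12 were lowest in replicate 3. The 12 NK cell markers averaged 6.81, 6.67 and 6.29, with 7 of 12 above background, all 7 of them lowest in replicate 3. The receptor gene Klrb1c was above background at 6.51, 6.45 and 5.94, whereas Ncr1, Klrd1, Klra8, Klre1 and Klrk1 were below it. The rest of this list, all above background, was Gzma, Gzmb, Prf1, Il2rb, Eomes and Tbx21. Whether NK cells or T cells carry these transcripts was not tested. The 14 measured cell cycle genes, all above background, averaged 8.08, 7.81 and 7.27, with 13 of the 14 lowest in replicate 3. Neutrophil markers averaged 5.975, 5.901 and 5.349. Among them Retnlg had 7.35, 7.11 and 5.55, Lcn2 had 7.98, 6.69 and 5.12, and Ly6g had 6.73, 6.80 and 4.86. Each of these was lowest in replicate 3 and above background only in replicates 1 and 2. Of the 5 neutrophil markers above background in all arrays, 1 was lowest in replicate 3 and 3 had identical values. Mast cell and basophil markers averaged 5.899, 5.973 and 5.185, highest in replicate 2 and lowest in replicate 3, with the protease gene Cpa3 at 7.38, 7.54 and 5.38. Macrophage markers averaged 8.64, 8.57 and 8.51, but of the 7 above background among 9, 3 were lowest in replicate 3 and 2 were highest there. Those above background included Adgre1 (mean 10.16), Csf1r (10.91) and Mertk (10.61). Cd163 and Vsig4, genes of resident macrophages, lay below it. Stromal markers had another order, with 6.52, 5.35 and 5.43, and B cell markers averaged 5.04 in replicate 1 and 4.93 in replicate 3. The part of these cells in the range of Csf2ra was not tested, and in such cultures fewer cells of a type and less RNA per cell cannot be told apart.

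The remaining chains did not keep that order except Il4ra, whose values spanned 0.021. No receptor chain reached a range of 0.2 log2 units, which 11.8% of the genes above background did. Genes with a like pattern over the arrays were to be named only from that range on, so none is named.

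**Figure D3:**
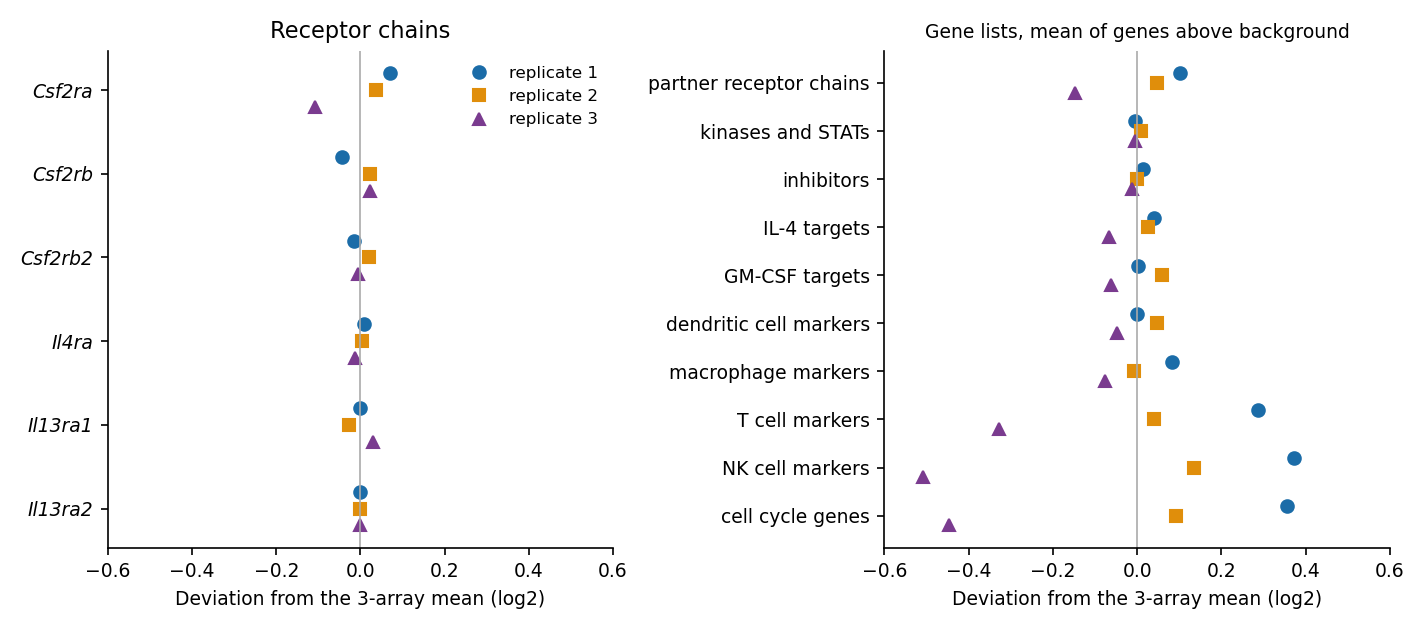
How far each array lay from the mean of all 3, in log2 units, for each receptor chain (left) and as the mean over the genes above background of 10 gene lists (right), one symbol per array. The receptor chains stay within 0.11 of their means, with Csf2ra lowest in replicate 3, and the lists of NK cell markers and cell cycle genes reach -0.51 and -0.45 in that array.

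The cells were also examined for the ligands of these receptors and of others that share a chain with them. Tslp, which binds through none of the members, was also in this list. Of 11 ligand genes, 3 were above background, against 60.5% of all genes. Csf2, which encodes GM-CSF itself, had 6.48, 6.40 and 6.16 in replicates 1, 2 and 3 (6.35 ± 0.16, SD, n = 3), and Il13 had 5.91 in each array. Both lay near the limit. At the 99th percentile limit Csf2 was above it in 2 of 3 arrays and Il13 in 0, and Il15 (7.72 ± 0.06, SD, n = 3), the ligand of a receptor that uses the common gamma chain, was the remaining one. Il4 (4.92 ± 0.06, SD, n = 3), Il3 (4.23) and Il5 (4.30) lay below background in all arrays.

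Partner receptor chains were detected in 8 of 9 cases, against 60.5% of all genes. All of them except Crlf2 belong to receptors that use a member chain. Il9r, at 5.62, 5.60 and 5.60 in replicates 1, 2 and 3, lay near the limit. At the 99th percentile limit 7 of 9 were above, against 46.2% of all genes, and at the limit set by genes of other tissues 7 of 9, against 45.4%. Il3ra, which pairs with either beta chain to bind IL-3, had 8.17, 8.16 and 8.16 in replicates 1, 2 and 3. Il5ra, which pairs with the common beta chain to bind IL-5, lay below background at 2.92 in each array. Among the partners of the common gamma chain, Il2rb, which takes part in binding IL-2 and IL-15, had 9.81, 9.47 and 8.42, a 2.61-fold range. Il2ra, which adds affinity for IL-2, had 7.57, 7.46 and 7.05. Both were lowest in replicate 3, as were 10 of the 12 T cell markers. Il2rb is itself in the list of NK cell markers, and which cells carry it was not tested. Il7r, the IL-7 receptor alpha chain, had 11.63, 11.71 and 11.79 and was highest in replicate 3.

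All 7 measured kinases and STATs were above background, against 60.5% of all genes, and Jak3, the kinase that docks on the common gamma chain, was among the 4 that had no probe set of their own. Jak1, which docks on the IL-4 receptor alpha chain, had 10.69 in each array. Jak2, which docks on the beta chain of the GM-CSF receptor, had 9.86, 9.85 and 9.85 in replicates 1, 2 and 3, and Tyk2, a kinase of the type II receptor, had 8.26, 8.32 and 8.32. Of the transcription factors, Stat6, which IL-4 activates, had 9.67, 9.71 and 9.71. Stat5a had 7.94, 7.95 and 7.84, and Stat5b had 7.95 in each array. The median range of the list was 0.0062 log2 units, against 0.0096 over all genes above background.

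Adaptors were above background in 8 of 9 cases, where 60.5% of all genes were. Irs2, which links the IL-4 receptor to PI3 kinase, had 7.15 in each array, while its relative Irs1 lay below background at 5.11 ± 0.08 (SD, n = 3). Inhibitors of cytokine signalling were above background in 13 of 13 cases, against the same share of all genes. Cish, a feedback inhibitor induced through STAT5, had 9.85, 9.88 and 9.79 in replicates 1, 2 and 3, Socs1 had 8.56 in each, and Socs2 had 10.24, 10.29 and 10.09. Socs3 had 7.62, 7.56 and 7.77, and so was highest in replicate 3, where Cish and Socs2 were lowest.

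**Figure D4:**
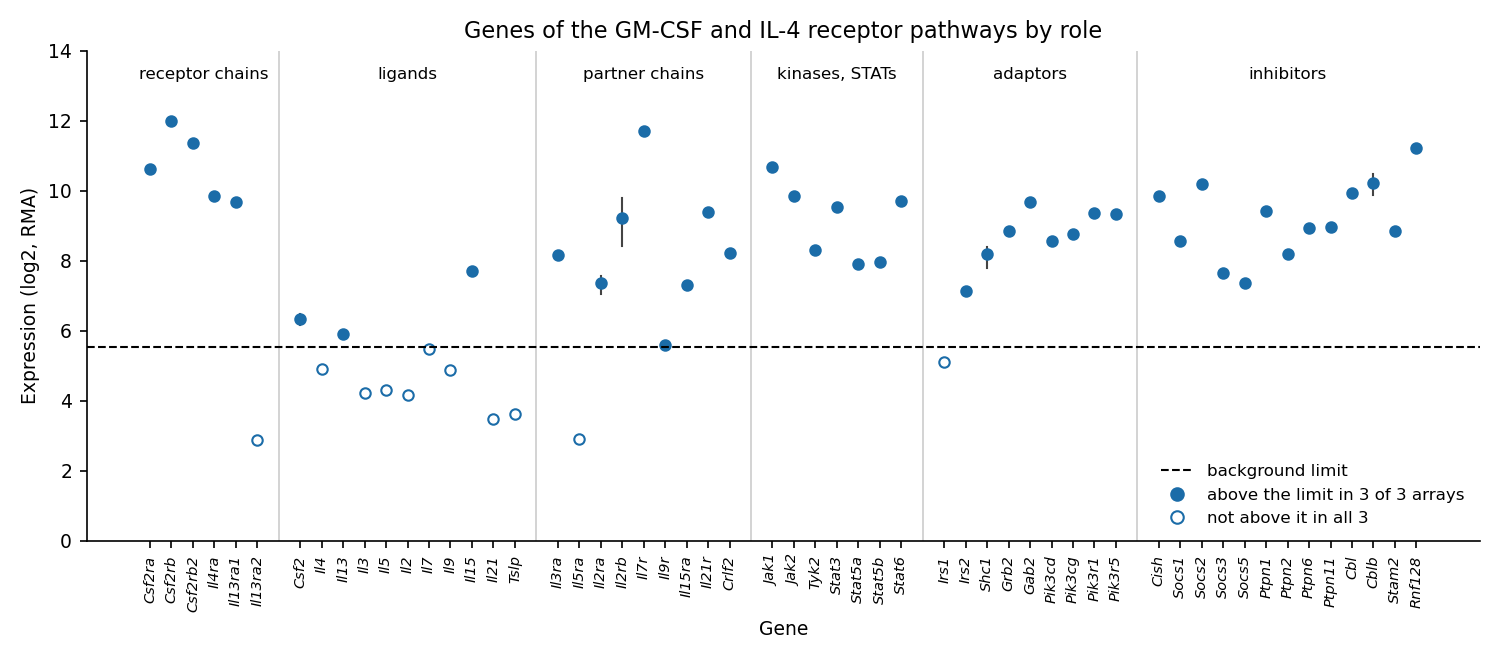
Mean log2 expression of the measured genes of the pathway by role, with vertical bars for the range over the 3 arrays (hidden by the point where small) and the mean background limit as a dashed line. Filled points exceed the limit in all arrays, as do 5 of 6 receptor chains, 3 of 11 ligands, 8 of 9 partner chains, 7 of 7 kinases and STATs, 8 of 9 adaptors and 13 of 13 inhibitors. Heights of different genes are not comparable.

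Genes known to respond to these cytokines were above background in most cases. Of the IL-4 targets, 22 of 23 were, against 60.5% of all genes, with Arg1 at 12.12 and Chil3 at 12.78 in each array, Chil4 at 7.21 in each and Retnla at 12.60, 12.43 and 11.98 in replicates 1, 2 and 3. The exception was Fcer2a, the low-affinity IgE receptor, at 4.68. Of the GM-CSF targets, 16 of 16 were, among them Pim1 at 10.32, 10.37 and 10.32, the survival genes Bcl2l1 (8.16, 8.29 and 8.35) and Mcl1 (10.42, 10.42 and 10.48). Their median ranges, over the genes above background, were 0.12 and 0.17 log2 units. All samples received both cytokines, so these values do not show a response to either. Some genes stand in more than 1 list, so the counts are not separate results. Ccl17, Irf4 and Pparg are in both target lists, and Cish, Socs1 and Socs2 are also inhibitors. Itgax, Ccr7 and Cd86 are also dendritic cell markers, and Mrc1 is also a macrophage marker.

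The label of the cells was set against its markers. Of 12 dendritic cell markers 10 were above background in all arrays, with the integrin gene Itgax at 11.91, 11.92 and 11.91, whereas Flt3 and Dpp4 were below it. Zbtb46, at 6.363 in each array, exceeded the 99th percentile limit of the olfactory and vomeronasal receptor probe sets in 3 of 3 arrays. It exceeded the limit set by genes of other tissues, 6.375 in each array, in 0 of 3 arrays. Markers of other cells were above background in 12 of 12 cases for T cells, 7 of 9 for macrophages, 7 of 12 for NK cells, 5 of 12 for neutrophils, 4 of 10 for basophils and mast cells, 3 of 10 for stromal cells and 2 of 7 for B cells. The share was 60.5% over all genes and 11 of 42 for genes of other tissues. At the limit set by those 42 genes the counts were 9 of 12 for dendritic cells, 8 of 12 for T cells, 7 of 9 for macrophages, 6 of 12 for NK cells, 2 of 10 for basophils and mast cells, 1 of 10 for stromal cells and 0 for neutrophils and B cells.

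Replicate 1 stood apart in 4 of the 10 stromal genes, which encode matrix proteins or the enzyme that crosslinks collagen. In replicates 1, 2 and 3, Dcn had 8.12, 5.36 and 5.41, Sparc 7.64, 5.34 and 5.78, Lox 7.58, 4.47 and 4.63, and Bgn 8.19, 5.33 and 5.31. The rest of the list moved less. Col1a1 had 6.94, 6.69 and 6.76, Col1a2 had 6.53, 6.36 and 6.36, and Col3a1 had 6.10 in each array. Lum, Postn and Pdgfrb spanned 0.045, 0.044 and 0.17 log2 units. Of the receptor chains, Csf2rb and Csf2rb2 were lowest in that array, by 0.065 and 0.011 log2 units from replicate 3, and the part of stromal cells in this was not tested.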

How the data were processed

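Total RNA of 3 BMDC samples was extracted with Trizol, and 150 ng of each was amplified and biotin-labelled, per the labels' protocols. The deposited values are log2 expression from RMA, per the submitters' processing notes (software, version and genome build: not given in the sources used here). Scanner intensities were not analysed. The array medians were 5.91, 5.91 and 5.91, and the values were not centred. Genes were named from the platform annotation, dated 2016, in which 21789 of 35556 probe sets name 1 gene and 12146 are not listed. Entrez identifiers of 21698 matched the RefSeq gene table. For genes with several probe sets, that of highest mean was kept. The number of arrays limits the precision.

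The members and gene lists were chosen with earlier results of these data known. With 1 group no difference between conditions could be tested, so levels, ranges and calls above background are descriptions without p-values. Named were all members, the first genes of each pathway list and the direct partners of the members. Others (Il5, Il15, Tslp, Il7r, Il9r, Crlf2, Irs1, Irs2, Fcer2a and the marker genes) were named after their values were seen. Calls were tested on simulated data. Alternatives were tried for the limit, the call (on the mean over arrays), averaging probe sets, centring and leaving out each array. Tools were Python 3.11.15, pandas 2.3.3, numpy 2.4.6 and matplotlib 3.10.9.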

Additional observations from a re-analysis of the deposited data

How the results depend on the processing

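The count of 5 receptor chains above background of 6 measured was the same under a 99th percentile limit (46.2% of all genes above it), with the limit set by 42 genes of other tissues (45.4%), on the mean over the arrays, with probe sets averaged and without each replicate. The ligands fell to 1 of 11 under either stricter limit, against 3; the other pathway lists stayed within 1.5 times. Leaving out each replicate in turn, the range lay between 0.032 and 0.18 log2 units for Csf2ra, lowest without replicate 3. It lay between 0 and 0.065 for Csf2rb, which had no range without replicate 1, between 0.011 and 0.036 for Csf2rb2 (lowest without replicate 2), between 0.0063 and 0.021 for Il4ra and between 0.026 and 0.058 for Il13ra1 (both lowest without replicate 3). Fewer arrays can only narrow a range. Centring each array on the median of the genes above background gave Il4ra a range of 0.0026 and Il13ra2 one of 0.018, since it moves every gene alike, also those with identical values. No paired analysis was possible because the arrays form 1 group.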
